A study of Mus musculus with 24 samples.

Results

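Among 10 right ventricles of sham-operated mice, 4 arrays carried a high level of Myh7, the slow beta-myosin heavy chain, and 6 carried a low one, and the genes that differ between these ventricles are described here. The classes were selected on the Myh7 signal itself, given as log2 signal above the 75th percentile of each array, with a level above 3.5 called high. Sham 6 (4.73), Sham 7 (5.91), Sham 8 (5.18) and Sham 9 (4.95) were high, against Sham 1 (1.72), Sham 2 (2.16), Sham 3 (1.92), Sham 4 (1.94), Sham 5 (1.62) and Sham 10 (2.08), which were low. Sham 6 was the array nearest to the threshold from above and Sham 2 the nearest from below, and both lay more than 1 log2 unit from it. They are 10 of 24 arrays in the series, and the other 14 were from ventricles after PSPI. Because the classes were chosen by a measured value, the sham comparison is given as values and counts, with no test.

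All 24 samples were labelled right ventricle, strain M/FVB/10-12, and were hybridised one per array with a single dye, Cy3. Both classes were labelled sham. PSPI is surgery that gives the right ventricle a pressure and volume load, with 5 samples at month 1, 5 at month 2 and 4 at month 3, and no sham title gives a month. No label separates the high from the low shams, and it is not stated whether the samples within a group are from different animals.

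Some arrays nearly coincided. Over the 300 most variable probes the median absolute log2 difference was 0.118 between Sham 3 and Sham 4, 0.174 and 0.177 between these and Sham 10, 0.175 between Sham 1 and Sham 5, and 0.220 between Sham 7 and Sham 9, against at least 0.313 for every other pair of shams. Sham 5, 9 and 10 lay on slide 3 and the other shams on slide 1, so each of these sets spanned both slides. The sets were averaged before any mean was taken, which left 3 samples in each class, and every SD below is over those 3 samples.

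The adult mouse ventricle runs on the fast alpha-myosin Myh6, and Myh7 is the fetal isoform that returns when the muscle is overloaded. Along with it, loaded cardiomyocytes are known to express skeletal actin, the natriuretic peptides and stretch-responsive ankyrin repeat proteins. Cardiac fibroblasts lay down periostin and collagens, and oxidation of fatty acids tends to decline.

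In high-Myh7 shams many genes of this overload program were higher, together with immediate early transcription factors and matricellular proteins, while several genes of fatty acid use and potassium channels were lower. Of 13507 genes measured in shams, Myh7 left out, 208 were at least 2-fold higher in the high-Myh7 shams with all 4 arrays above all 6 low-Myh7 arrays (1.54%), and 202 were at least 2-fold lower with all 4 arrays below (1.5%). Whatever the size of the difference, all 4 high-Myh7 arrays lay above all low-Myh7 arrays for 1108 genes (8.2%) and below them for 1110 (8.22%). The genes that also differed by 2-fold are called counted below, and a gene that overlapped or differed by under 2-fold is called uncounted. Since the same contrast chose the classes, nothing is read from these shares. The median difference over all genes was -0.02 on the log2 scale. The counts were 99 higher and 72 lower with normexp background correction and 95 and 82 in the authors' deposited table, and 342 genes were higher when Sham 3, 4 and 10 were left out. Between 36.8% and 44.7% of probes were well above background on the high-Myh7 arrays, and between 36.7% and 46.7% on the low-Myh7 arrays.

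**Figure D1:**
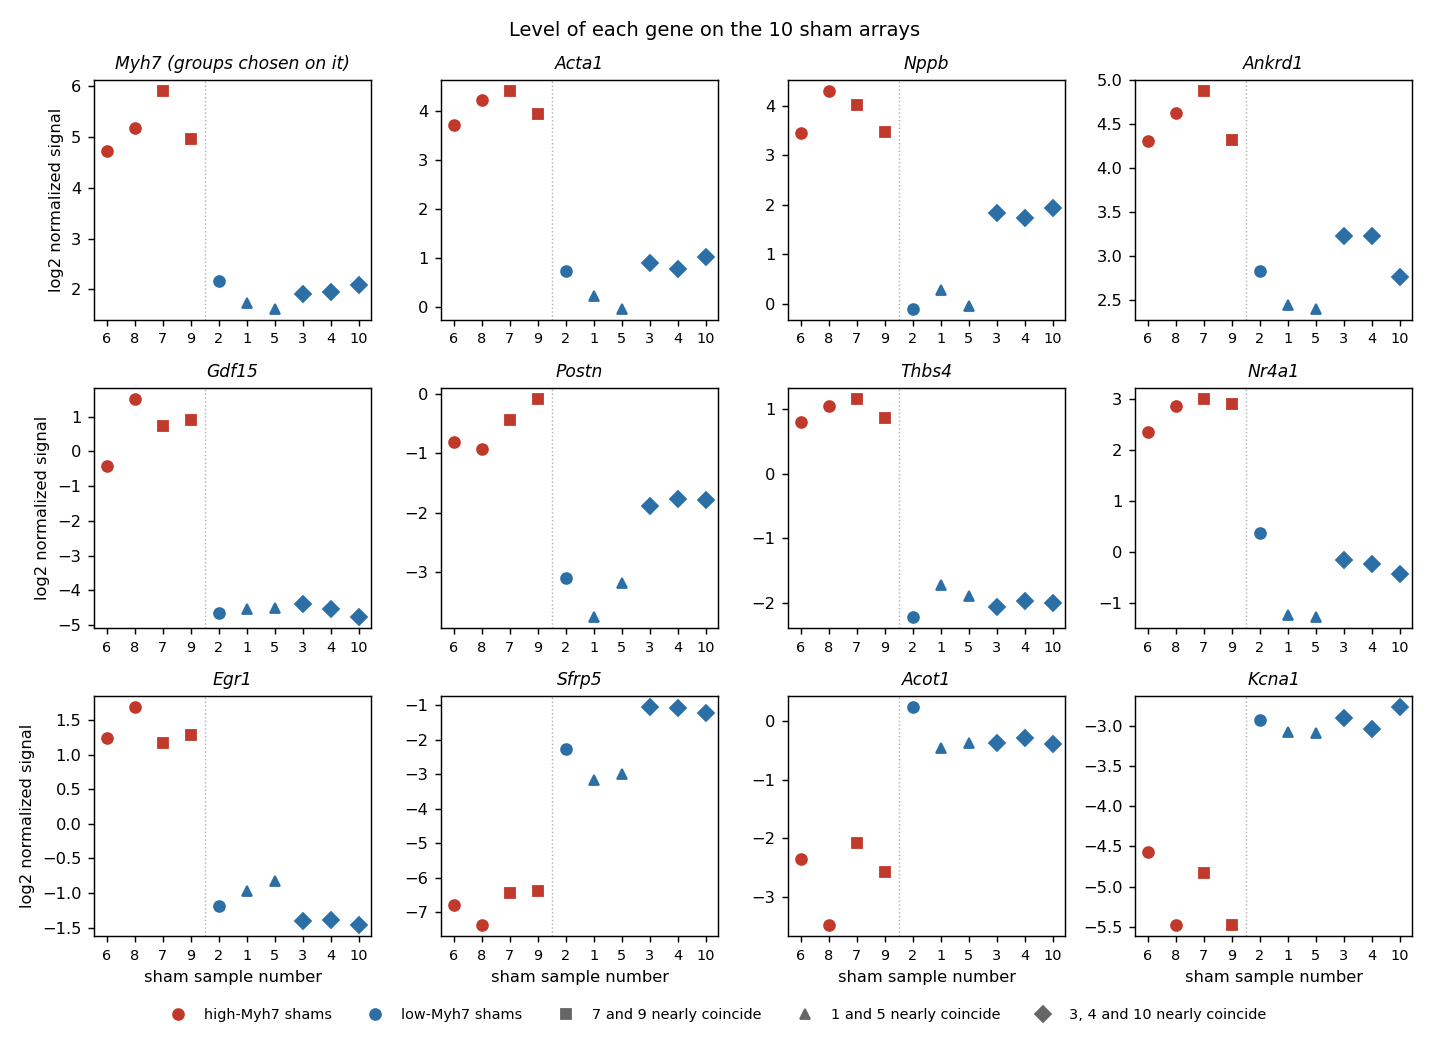
Level of 12 genes on the 10 sham arrays, in log2 normalized signal (y axis), with 1 point per array, high-Myh7 shams in red on the left and low-Myh7 shams in blue on the right of the dotted line, and marker shapes for arrays that nearly coincide. The classes were chosen on Myh7, and the high-Myh7 arrays lie above all low-Myh7 arrays for Acta1 (3.70 and above, against 1.02 and below) and below them for Sfrp5 (-6.39 and below, against -3.18 and above).

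Cardiomyocyte stress genes stood higher in high-Myh7 shams. Of 20 such genes measured, 8 were counted higher and 0 lower (against 1.54% and 1.5% of all genes). The median difference was 0.88, against -0.02 over all genes. Acta1, skeletal alpha-actin, was at 3.70, 4.41, 4.22 and 3.92 in Sham 6 to 9, against 0.21, 0.72, 0.89, 0.76, -0.04 and 1.02 in Sham 1, 2, 3, 4, 5 and 10. The classes did not overlap, and Acta1 averaged 4.03 ± 0.28 in high-Myh7 shams and 0.57 ± 0.43 in low-Myh7 shams (SD, n = 3 each), a difference of 3.46. Nppb, which encodes B-type natriuretic peptide, was at 3.44, 4.01, 4.30 and 3.46 in Sham 6 to 9, against -0.05 to 0.27 in Sham 1 and 5, -0.11 in Sham 2 and 1.72 to 1.93 in Sham 3, 4 and 10. Its difference was 3.22, and the low class was itself split by more than 1 log2 unit. Ankrd1, a nuclear and sarcomeric protein that responds to stretch, was at 4.31, 4.88, 4.62 and 4.32 in Sham 6 to 9, against 2.40 to 3.23 in the low-Myh7 shams, a difference of 1.74.

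The other counted members were Rcan1, a target and inhibitor of calcineurin signalling (difference 2.02), Mybpc2, the fast skeletal myosin-binding protein C (1.63), Ankrd23 (1.58), the actin-binding protein Xirp2 (1.36) and Enah, an actin regulator (1.29). Not every stress gene differed. Csrp3, a muscle LIM protein of the Z-disc, differed by 0.03, Xirp1 by 0.07 and Fhl2 by -0.38. Myh6 was at 5.36, 6.14, 5.33 and 4.87 in Sham 6 to 9, against 5.03 to 6.72 in the low-Myh7 shams, so the classes overlapped for the alpha isoform (difference -0.60). Of 19 adult sarcomere genes 0 were counted. Mhrt, a noncoding RNA transcribed from the myosin heavy chain locus in mouse and picked here after its values were seen, was at 1.92 to 2.40 in high-Myh7 shams and 3.03 to 3.46 in low-Myh7 shams, a difference of -1.06.

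The region just before the start of Acta1 and of Nppb is shown because these genes had the largest counted differences among the stress genes and hold several of the cardiac motifs searched. Each line gives the 120 bases before the annotated start, 5′ to 3′ on the gene's strand, from RefSeq promoters of build GRCm38.p6, with motif matches in capitals. Acta1 lies at chr8:123894776-123894895 on the minus strand and Nppb at chr4:147985780-147985899 on the plus strand.
Acta1: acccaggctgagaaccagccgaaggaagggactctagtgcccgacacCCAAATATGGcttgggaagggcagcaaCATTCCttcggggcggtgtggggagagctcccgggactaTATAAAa
Nppb: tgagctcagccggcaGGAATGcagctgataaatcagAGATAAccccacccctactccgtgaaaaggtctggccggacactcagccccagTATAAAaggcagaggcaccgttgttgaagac
In Acta1 the capitals mark, in order, a CArG box, an MCAT element (CATTCC) and a TATA element (TATAAA). In Nppb they mark an MCAT element on the opposite strand, a GATA element (AGATAA) and a TATA element. The matches are a description of these letters and not of factor binding.

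The motifs were searched on both strands from 250 bases before to 50 after the start, overlaps with other motifs allowed, in the 142 of 197 higher and 113 of 166 lower genes with a plain symbol that had a RefSeq promoter. CATTCC was in 29 promoters of higher genes (20.4%) and 17 of lower genes (15.0%), against 1266 of 10256 promoters of genes measured in shams (12.3%). TATAAA was in 20 promoters of higher genes (14.1%) and 7 of lower genes (6.19%), against 7.73% of all measured genes. In higher genes, lower genes and all measured genes, in that order, the AP-1 element TGANTCA was in 6.34%, 7.08% and 5.01%, AGATAA in 6.34%, 9.73% and 6.60%, the ATF4 element TGATGNAAN in 3.52%, 4.42% and 2.24%, and the CArG box in 1.41%, 0.885% and 1.41%.

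Gdf15, a secreted stress cytokine of the TGF-beta superfamily, had the largest counted difference among genes seen on all 10 shams. It was at -0.43, 0.74, 1.51 and 0.90 in Sham 6 to 9, against -4.54, -4.64, -4.39, -4.54, -4.51 and -4.77 in Sham 1, 2, 3, 4, 5 and 10. It averaged 0.63 ± 0.98 in high-Myh7 shams and -4.58 ± 0.06 in low-Myh7 shams (SD, n = 3 each), a difference of 5.21 or 37.1-fold. The low class varied very little, while the high class spanned close to 2 log2 units with Sham 6 lowest.

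Gdf15 is a known target of the integrated stress response and of p53, and the part of either in its difference was not tested. Of 25 integrated stress response genes 2 were counted higher, Gdf15 and Atf3, and 1 lower, Aldh1l2 (against 1.54% and 1.5% of all genes). The list median was 0.13. All high-Myh7 arrays lay above all low-Myh7 arrays for 4 of them and below for 3 (against 8.2% and 8.22% of all genes). Ddit3 differed by 0.13, Trib3 by 0.14, Sesn2 by 0.01 and Asns by 0.48. Among 17 p53 and apoptosis genes 2 were counted higher, Btg2 (2.05) and Plk2 (1.04), against 1.54% of all genes, with a list median of 0.15. All high-Myh7 arrays lay above all low-Myh7 arrays for 6 of these genes and below for 1 (against 8.2% and 8.22%). Cdkn1a, the cell cycle inhibitor p21, was at -2.87, -2.23, -2.05 and -2.44 in Sham 6 to 9, against -3.32 to -2.99 in low-Myh7 shams, and its difference of 0.76 was under the 2-fold limit.

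Immediate early genes, transcription factors and regulators that cells switch on within minutes of a stimulus, made up the list with the highest share of counted members. Of 20 measured, 11 were counted higher and 0 lower (against 1.54% and 1.5% of all genes), and the median difference was 1.21. All 4 high-Myh7 arrays lay above all low-Myh7 arrays for 16 (against 8.2% of all genes). Nr4a1, an orphan nuclear receptor, was at 2.35, 3.01, 2.88 and 2.90 in Sham 6 to 9, against -1.24 and -1.28 in Sham 1 and 5, 0.37 in Sham 2 and -0.43 to -0.16 in Sham 3, 4 and 10. Egr1, a zinc finger factor, was at 1.23, 1.17, 1.68 and 1.29 in Sham 6 to 9, against -1.47 to -0.83 in low-Myh7 shams. Both genes left a gap between the classes larger than the spread within either.

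Fos, a subunit of the AP-1 complex, averaged -1.65 ± 0.25 in high-Myh7 shams and -3.82 ± 0.59 in low-Myh7 shams (SD, n = 3 each). Egr2 differed by 3.15, Nr4a2 by 2.03, Btg2 by 2.05, Ier2 by 1.63, Junb by 1.46, Maff by 1.24 and Myc by 1.19. Atf3, a stress-induced repressor, was at -3.58 in Sham 6 and -1.90 to -1.77 in Sham 7, 8 and 9, against -4.54 to -3.81 in low-Myh7 shams. Jun differed by 0.30, Klf6 by 0.28 and Ier3 by 0.47 and were uncounted.

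**Figure D2:**
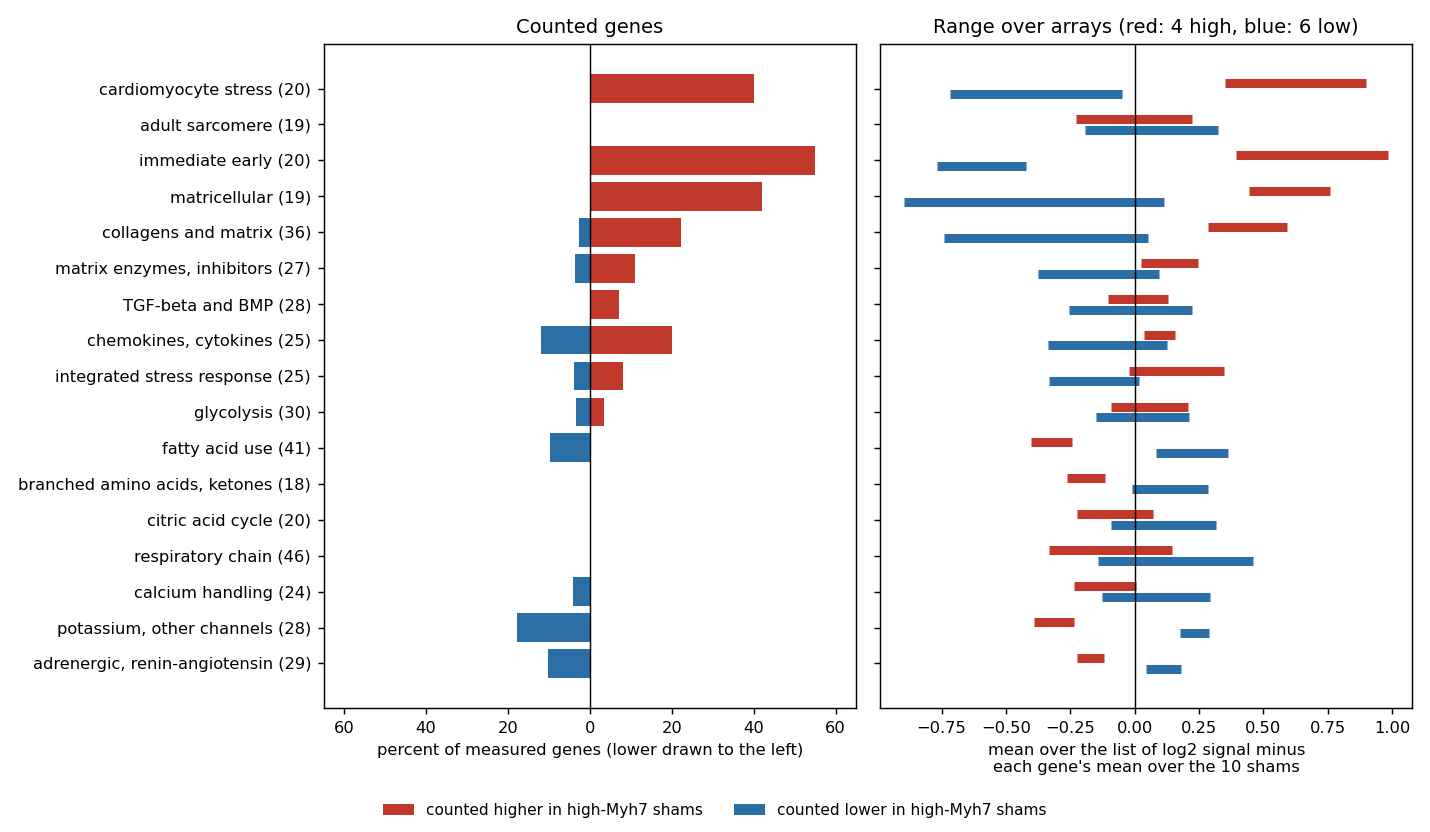
For 17 gene lists (measured genes in brackets), the left panel shows the percent of genes counted higher (red, to the right) or lower (blue, to the left) in high-Myh7 shams, and the right panel the range over arrays of the list's mean centred log2 signal, for the 4 high-Myh7 arrays (red) above the 6 low-Myh7 arrays (blue). Immediate early, matricellular and cardiomyocyte stress genes have the highest percent counted higher (11 of 20, 8 of 19 and 8 of 20, against 1.54% of all genes). Adult sarcomere genes have 0 of 19.

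Matricellular proteins, which modulate the extracellular matrix without building its fibres, were higher in high-Myh7 shams. Of 19 measured, 8 were counted higher and 0 lower (against 1.54% and 1.5% of all genes), with a median of 1.39. Postn, periostin of activated fibroblasts, was at -0.81, -0.44, -0.93 and -0.09 in Sham 6 to 9, against -3.76 and -3.18 in Sham 1 and 5, -3.11 in Sham 2 and -1.88 to -1.77 in Sham 3, 4 and 10. Thbs4, thrombospondin 4, was at 0.80, 1.15, 1.04 and 0.85 in Sham 6 to 9, against -2.21 to -1.73 in low-Myh7 shams, a difference of 2.96 with little spread in either class. Cilp, a matrix protein that binds TGF-beta1, averaged -1.53 ± 0.56 in high-Myh7 shams and -5.63 ± 1.01 in low-Myh7 shams (SD, n = 3 each), a difference of 4.11.

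Ltbp2 (difference 2.53), Thbs1 (1.62), Aspn (1.54), Ccn1 (1.42) and Ccn2 (1.39), also known as Ctgf, were the other counted members. Comp and Ccn5 differed by 1.55 and 1.53 but overlapped, and Ccn4 differed by -0.62. In several matrix genes Sham 3, 4 and 10 lay closer to the high-Myh7 arrays than Sham 1, 2 and 5 did, as for Postn and for Mfap4, a microfibril protein, at -0.41 to -0.25 in that set and -2.41 to -2.23 in the other low-Myh7 shams, against -0.05 to 0.54 in the high-Myh7 shams.

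Of 36 collagens and structural matrix genes 8 were counted higher and 1 lower (against 1.54% and 1.5% of all genes), with a median of 0.70. The counted genes included Col12a1, a fibril-associated collagen (at least 3.92-fold higher, since no low-Myh7 array was well above background), Col8a2 (difference 2.95, with 2 of 6 low-Myh7 arrays well above background), Col8a1 (1.87), Mfap5 (1.48), Col5a2 (1.33) and the basement membrane chains Col4a1 (1.10) and Col4a2 (0.84 to 1.45 in high-Myh7 shams and -0.35 to 0.43 in low-Myh7 shams). The fibrillar collagens Col1a1 and Col3a1 were uncounted at 0.88 and 0.95, although their arrays did not overlap, as for Col3a1, at 2.91 to 3.40 in high-Myh7 shams and 1.56 to 2.62 in low-Myh7 shams. Efemp1, fibulin 3, was the 1 member counted lower (-1.42).

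Among 27 matrix enzymes and inhibitors 3 were counted higher and 1 lower (against 1.54% and 1.5% of all genes). The higher ones included Timp1 (1.99) and the collagen crosslinking enzyme Loxl2 (1.19). The lower one was Timp4 (-1.95), the tissue inhibitor most abundant in heart. The TGF-beta ligands Tgfb2 (1.78) and Tgfb3 (1.03) were the only counted members of 28 TGF-beta and BMP genes (against 1.54% of all genes counted higher). The list median was 0.04. Secreted Wnt modulators went both ways. Sfrp2 was higher by 2.51, and Sfrp5 was at -6.79, -6.43, -7.38 and -6.39 in Sham 6 to 9, against -3.18, -2.28, -1.07, -1.09, -3.00 and -1.24 in Sham 1, 2, 3, 4, 5 and 10. Sfrp5 had the largest negative difference of all counted genes with a plain symbol, at -4.69, and was well above background on 1 of 4 high-Myh7 arrays.

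Genes of fatty acid uptake and oxidation had mostly small negative differences in high-Myh7 shams. Of 41 measured, 4 were counted lower and 0 higher (against 1.5% and 1.54% of all genes), and the median was -0.49. All high-Myh7 arrays lay below all low-Myh7 arrays for 17 (against 8.22% of all genes). Acot1, an acyl-CoA thioesterase induced by PPAR-alpha, was at -2.35, -2.08, -3.48 and -2.58 in Sham 6 to 9, against -0.47 to 0.23 in low-Myh7 shams. Pdk4, the kinase that restrains pyruvate oxidation, was at 1.47 to 1.68 in high-Myh7 shams and 2.55 to 3.90 in low-Myh7 shams, with Sham 2 highest. Angptl4, an inhibitor of lipoprotein lipase, differed by -1.57.

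The enzymes of beta-oxidation itself stayed under the 2-fold limit, with Acadm at -0.43, Acadvl at -0.68, Hadha at -0.56 and Cpt2 at -0.83. Of 18 genes for branched-chain amino acid and ketone use 0 were counted, 10 had all high-Myh7 arrays below (against 8.22% of all genes), and the median was -0.36. Citric acid cycle and respiratory chain genes had 0 counted of 20 and 46, with medians of -0.27 and -0.32 and overlapping ranges. In glycolysis 1 of 30 genes was counted higher and 1 lower (against 1.54% and 1.5% of all genes). The higher one was the phosphofructokinase Pfkp (1.24). The lower one was Pfkfb1 (-2.33), which sets the level of fructose 2,6-bisphosphate. Pfkfb1 was at -0.78, -1.83, -2.25 and -1.64 in Sham 6 to 9, against 0.38 to 0.96 in low-Myh7 shams.

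Ion channel genes differed in one direction where counted. Of 28 potassium and other channel genes 5 were counted lower and 0 higher (against 1.5% and 1.54% of all genes), with a median of -0.32. Kcna1, a delayed rectifier subunit better known from neurons, was at -4.57, -4.83, -5.48 and -5.48 in Sham 6 to 9, against -3.08 to -2.76 in low-Myh7 shams. Kcnj3, the acetylcholine-gated inward rectifier prominent in atria, differed by -1.74, the modulatory subunit Kcnv2 by -1.53, Kcnj2, which carries the ventricular inward rectifier current, by -1.23 and Kcnh2, the rapid delayed rectifier, was at -2.89 to -2.27 in high-Myh7 shams and -1.62 to -1.45 in low-Myh7 shams. Kcnip2, the subunit of the transient outward current, differed by 0.88.

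In calcium handling 1 of 24 genes was counted, the T-type channel Cacna1g (-1.26), against 1.5% of all genes counted lower. Atp2a2, the calcium pump SERCA2, was at 3.86 to 4.24 in high-Myh7 shams and 4.17 to 4.78 in low-Myh7 shams, so the classes overlapped, with a difference of -0.48. Among 29 adrenergic and renin-angiotensin genes 11 had all high-Myh7 arrays below all low-Myh7 arrays and 2 above (against 8.22% and 8.2% of all genes). Of these 29 genes 3 were counted lower and 0 higher (against 1.5% and 1.54%). They were Agt, angiotensinogen (-1.84), Corin, the protease that activates atrial natriuretic peptide (-1.20), and the alpha1B adrenergic receptor Adra1b (-1.06). Corin was tight in both classes, at -0.72 to -0.38 in high-Myh7 shams and 0.51 to 0.68 in low-Myh7 shams.

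Growth factors and cytokines went in both directions, where 1.54% of all genes were counted higher and 1.5% lower. Nrg1, neuregulin 1 (1.11), and Ptn, pleiotrophin (1.59), were counted higher, and Fgf10 (-2.23), Angpt1, the Tie2 ligand (-1.55), Igf2 (at least 2.51-fold lower) and Igf1 (-1.02) lower, out of 34 growth factor genes. Among 25 chemokines and cytokines 5 were counted higher, Il1b (at least 2.50-fold), Ccl4 (at least 2.18-fold), Cxcl1 (1.80), Tnf (1.54) and Ccl8 (1.15). Il1b and Ccl4 entered the genes measured only through the high-Myh7 arrays, since no low-Myh7 array was well above background. The 3 counted lower were the eosinophil chemokine Ccl11 (-2.25), Ccl19 (-1.11) and Il15 (-1.07). Il1b, Ccl4, Cxcl1 and Tnf were dim, at -4.11 or below on every sham array.

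Further genes with the largest differences lay outside the lists given so far. Vgll2, a cofactor of the TEAD factors that bind MCAT elements, was at -2.82, -2.32, -2.30 and -2.20 in Sham 6 to 9, against -7.47, -6.64, -5.48, -5.46, -7.43 and -5.55 in Sham 1, 2, 3, 4, 5 and 10. Lman1l averaged -1.22 ± 0.21 in high-Myh7 shams and -4.74 ± 0.40 in low-Myh7 shams (SD, n = 3 each). Bex1 differed by 3.91, Aqp8, a water channel, by 3.15, the epithelial keratin Krt18 by 3.46 and the guanine nucleotide exchange factor Ngef by 3.02, and Bex1 and Ngef were well above background on only 2 of 6 low-Myh7 arrays. Tceal7 was at least 6.79-fold higher, as no low-Myh7 array was well above background.

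Mup18, of the major urinary protein family made mostly in liver, had the largest difference but was spread over the high class, at 0.66, -1.97, -6.64 and -2.02 in Sham 6 to 9, and not well above background on any low-Myh7 array, so that it was at least 16.9-fold higher. The Mup genes are near-identical copies, so which of them the probe reads is uncertain. On the lower side, the kallikreins Klk1b22 (at least 4.36-fold lower) and Klk1b26 (-2.22) are likewise copies of one family. Kcnk1, Timd4 and Sbk2, each not well above background on any high-Myh7 array, were at least 3.80-fold, 3.73-fold and 3.89-fold lower, and Lgals6 and Pla2g2c differed by -2.17 and -2.19. Cpne5 was at -4.99 to -4.50 in high-Myh7 shams, against -0.66 to -0.43 in Sham 3, 4 and 10 and -3.79 to -3.60 in Sham 1, 2 and 5, a difference of -2.13 that was -1.07 without Sham 3, 4 and 10.

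Of the 208 higher genes 8 were not well above background on any low-Myh7 array, and of the 202 lower genes 19 on any high-Myh7 array. These were measured only through the class where they were higher, so nothing is read from their being counted, although they stay in the counts. Some counted genes were well above background on only part of a class, so that their differences rest in part on background signal. Of the 6 low-Myh7 arrays, Tnf and Ccr2 were well above background on 1, Bex1, Ngef, Col8a2 and Junb on 2, Vgll2 on 3, Cilp, Egr2, Col8a1 and Cxcl1 on 4 and Krt18 and Col5a2 on 5. Of the 4 high-Myh7 arrays, Pla2g2c and Ccl19 were well above background on 1, Lgals6 and Fgf10 on 2 and Agt, Aldh1l2 and Ccr2 on 3.

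The tissue label was checked against ventricular genes. Myl2, Myl3, Tnni3, Tnnt2, Actc1, Myh6, Pln and Ryr2 were present on every sham array, 0 of 8 were counted, and the list's summed log2 level was 7.76 to 8.80 in high-Myh7 shams and 8.03 to 9.08 in low-Myh7 shams.

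Atrial genes divided the low-Myh7 shams among themselves. Myl7, the atrial regulatory light chain, was at -3.59, -5.63, -7.89 and -5.53 in Sham 6 to 9, against -7.75, -4.94, 3.53, 3.48, -7.56 and 3.54 in Sham 1, 2, 3, 4, 5 and 10. Nppa, atrial natriuretic peptide, was at 4.83, 4.93, 4.68 and 4.49 in Sham 6 to 9, against 5.74 to 6.24 in Sham 3, 4 and 10, 0.97 to 0.98 in Sham 1 and 5 and -1.12 in Sham 2. Nppa therefore overlapped between the classes, its mean difference being 2.81 with an SD of 3.61 in the low class. Myl4 and Sln had the same order, with Sham 3, 4 and 10 at 5.59 to 6.15 and at 4.92 to 5.24 and every other sham at 0.37 or below and at -1.07 or below. The summed log2 level of 11 atrial genes was 4.66 to 5.05 in high-Myh7 shams and 1.13 to 7.69 in low-Myh7 shams.

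Without Sham 3, 4 and 10, 21 of the 208 higher and 31 of the 202 lower genes differed by under 2-fold. Their signs could not turn, since all high-Myh7 arrays lay beyond all low-Myh7 arrays for these genes. The difference was then larger for Nppb (3.82), Krt18 (4.54), Col8a2 (3.71), Ngef (3.76), Mfap4 (2.61) and Timp1 (2.59), and smaller for Sbk2 (-1.41, against -2.25 with all shams). Col4a1 (0.90), Col4a2 (0.81), Plk2 (0.97), Efemp1 (-0.95), Igf1 (-0.77), Igf2 (-0.96), Kcnh2 (-0.97) and Tnni2 (-0.90) came under 2-fold, as did Aldh1l2, which was close to it with all shams. The part of atrial tissue in these values was not tested.

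**Figure D3:**
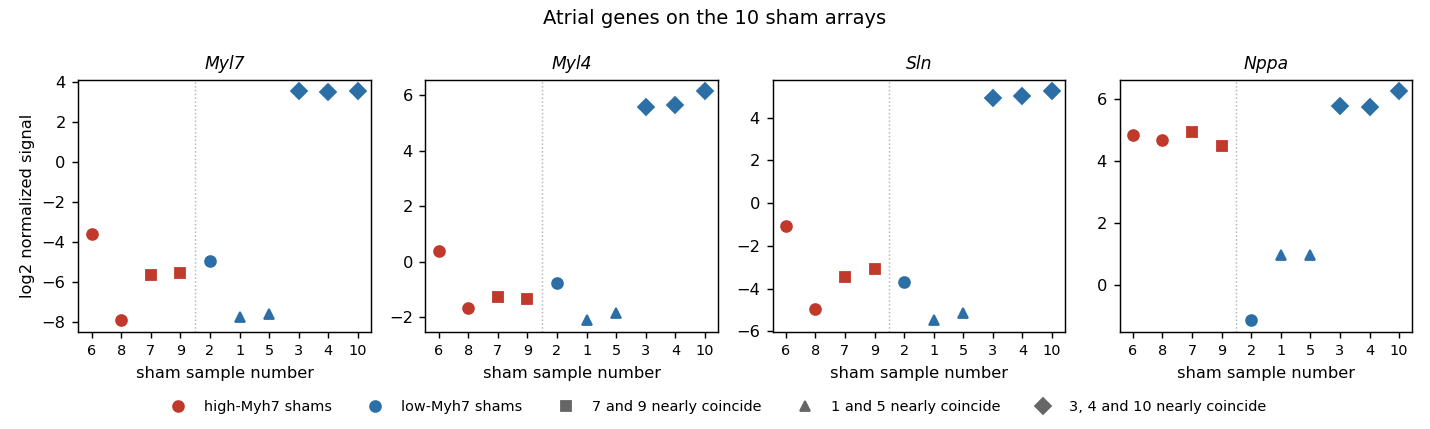
Level of the atrial genes Myl7, Myl4, Sln and Nppa on the 10 sham arrays in log2 normalized signal, 1 point per array, with high-Myh7 shams in red on the left and low-Myh7 shams in blue on the right of the dotted line. Sham 3, 4 and 10 stand at 3.48 and above for Myl7 while all other shams are at -3.59 and below, and for Nppa the high-Myh7 shams lie between those 3 arrays and Sham 1, 2 and 5.

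Other cell types were compared by their marker lists, and their part in the results was not tested. In bulk tissue, fewer cells of a type and less RNA per cell cannot be told apart. The summed level of 12 adipocyte genes was 3.53 to 3.86 in high-Myh7 shams and 4.23 to 4.37 in low-Myh7 shams, with 0 genes counted. A sum is led by the brightest genes, and the list's mean centred log2 signal overlapped. It was -1.38 to -0.59 in high-Myh7 shams and -1.38 to 1.42 in low-Myh7 shams. Adipoq, the fat cell hormone adiponectin, overlapped widely, at -6.36 to -5.45 in high-Myh7 shams and -6.81 to -2.35 in low-Myh7 shams. Its difference of -1.33 was -0.30 without Sham 3, 4 and 10. For 10 nerve and Schwann cell genes the summed level was -0.29 to 0.13 in high-Myh7 shams and 0.41 to 1.15 in low-Myh7 shams. Of these genes Kcna1 and Gfra3 were counted lower (against 1.5% of all genes).

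Fibroblast markers had 2 of 16 counted higher, Mfap5 and Pi16 (1.33), against 1.54% of all genes. Their summed levels were 6.12 to 6.35 in high-Myh7 shams and 5.83 to 6.59 in low-Myh7 shams. Of 19 macrophage genes 1 was counted higher (against 1.54% of all genes), Ccr2 of recruited monocytes (1.34). Their sums were 3.38 to 3.52 in high-Myh7 shams and 3.48 to 3.81 in low-Myh7 shams. Endothelial genes (18 measured) and smooth muscle and pericyte genes (15 measured) had 0 counted. Epicardial and mesothelial markers had 1 of 14 counted higher, Krt18, and 0 lower (against 1.54% and 1.5% of all genes). Their summed levels overlapped, at 2.47 to 3.49 in high-Myh7 shams and 2.23 to 3.48 in low-Myh7 shams. Skeletal muscle had 5 of 16 genes measured and 1 counted lower, Tnni2 (-1.10), against 1.5% of all genes. Its defining myosins Myh1, Myh2 and Myh4 were not among the genes measured.

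Within the high class Sham 6 was the array nearest to the low class most often. It was the lowest of the 4 for 132 of the 208 higher genes (63.5%) and the highest for 116 of the 202 lower genes (57.4%), and the next most frequent array was Sham 7 for the higher genes (18.3%) and Sham 9 for the lower genes (19.3%). In the low class the array nearest to the high class was Sham 3, 4 or 10 for 51.4% of the 208 higher and 37.6% of the 202 lower genes. These nearly coincided and make up 3 of the 6 low-Myh7 arrays. The most frequent single array was Sham 5 for the higher genes (51 genes, 24.5%) and Sham 2 for the lower genes (57 genes, 28.2%). Leaving out Sham 6 gave 264 higher and 261 lower genes.

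The comparison was also made within slides. On slide 1 alone (Sham 6, 7 and 8 against Sham 1, 2, 3 and 4), 241 genes were higher and 206 lower, and on slide 3 alone (Sham 9 against Sham 5 and 10), with few arrays, 302 and 417. Of 89 named genes, 0 moved by 1 SD or more on slide 1 alone and 15 did on slide 3 alone. Counted genes could not turn sign within a slide, since their high-Myh7 arrays all lay beyond every low-Myh7 array.

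The PSPI arrays were not among those sorted by Myh7, although the probes used to scale the shams were chosen on all 24 arrays, and they share no control with the shams. Myh7 itself was at 5.75, 2.49, 2.52, 2.03 and 5.13 in month 1 samples 1 to 5, and at 4.67 or above on all arrays of months 2 and 3. Month and Myh7 level therefore moved together in this contrast, and the part of each in the results was not tested. Months 2 and 3 were set against month 1 with limma over 14380 genes, after averaging arrays that nearly coincided to 4, 4 and 3 samples. In PSPI months 2 and 3, 226 genes were called higher than in month 1 (1.57%) and 207 lower (1.44%) at an adjusted p under 0.05, and 3463 had an unadjusted p under 0.05.

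Most genes counted between the shams had a difference of the same sign in this contrast. Of the 208 genes counted higher, 207 were tested, and 36 were called higher (17.4% of them and 15.9% of all genes called higher), 0 were called lower and 204 had a positive difference (98.6%, against 49.7% of all genes). Of the 202 genes counted lower, 197 were tested, and 28 were called lower (14.2% of them and 13.5% of all genes called lower), 0 were called higher and 178 had a negative difference (90.4%, against 50.3% of all genes). The median difference was 1.03 for the higher and -0.94 for the lower genes, against -0.0019 over all genes. At an unadjusted p under 0.05 in limma these were 140 and 128 genes, against 3463 of all 14380 genes in either direction. The called genes depended on single arrays: without month 1 sample 2, 3 or 4, month 2 sample 2 or 3, or month 3 sample 4, left out in turn, limma called 0 of either set, and omitting month 2 sample 4 gave 5 and 6. With month 1 sample 2 left out, 110 higher and 90 lower genes had an unadjusted p under 0.05 in limma. Averaging month 1 samples 3 and 4, the next closest pair (distance 0.247), also left 0, with 110 and 101 genes at an unadjusted p under 0.05 in limma. Over all genes, the number at this limit was counted in the main setting only.

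**Figure D4:**
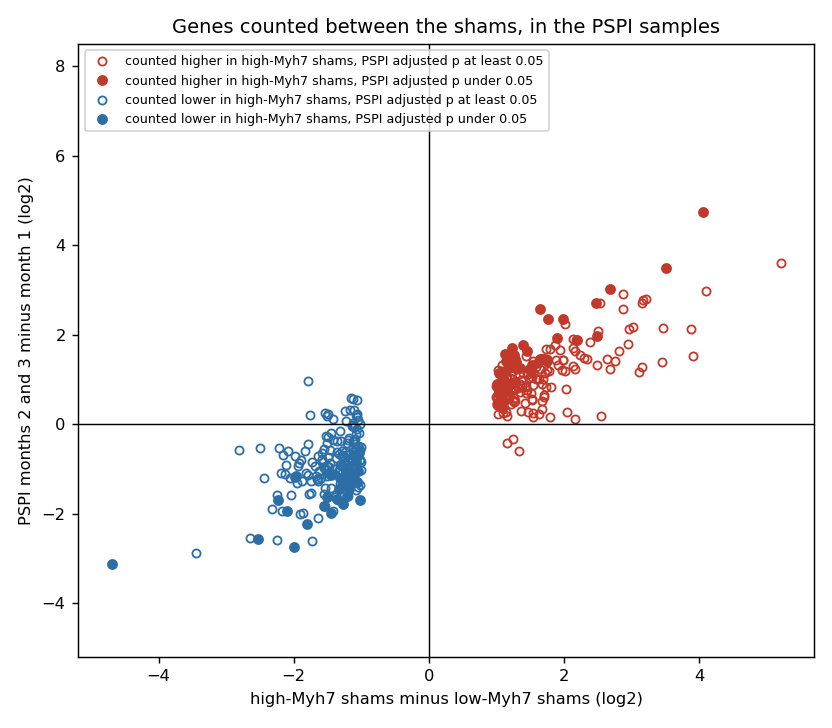
Each point is a gene counted higher (red) or lower (blue) in high-Myh7 shams, with the log2 difference between high-Myh7 and low-Myh7 shams on the x axis and that between PSPI months 2 and 3 and month 1 on the y axis, filled where limma's adjusted p in PSPI was under 0.05 (36 and 28 genes). Of the red points 204 of 207 lie above 0 and of the blue points 178 of 197 lie below 0.

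The called genes included Vgll2, which was higher in months 2 and 3 by 4.75 ± 0.96 (SE; limma, adjusted p = 0.0397), the actin regulator Enah by 1.38 ± 0.32 (limma, adjusted p = 0.0499), Maff by 1.39 ± 0.29 (limma, adjusted p = 0.0431) and Pfkp by 1.46 ± 0.28 (limma, adjusted p = 0.0383). Sfrp5 was lower by -3.13 ± 0.64 (limma, adjusted p = 0.0418), Acot1 by -2.58 ± 0.55 (limma, adjusted p = 0.0433), Kcna1 by -1.95 ± 0.43 (limma, adjusted p = 0.0461), Fgf10 by -1.70 ± 0.34 (limma, adjusted p = 0.0383) and Cacna1g by -1.79 ± 0.32 (limma, adjusted p = 0.0377). Others with large sham differences did not pass. Gdf15 had a difference of 3.61 ± 1.08 (limma, adjusted p = 0.084), Acta1 2.15 ± 0.60 (limma, adjusted p = 0.0732), Nppb 2.81 ± 0.81 (limma, adjusted p = 0.0767), Ankrd1 1.68 ± 0.43 (limma, adjusted p = 0.0617) and Postn 1.89 ± 0.54 (limma, adjusted p = 0.0741).

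Month 1 was itself uneven for these genes. Gdf15 was at 1.04, -4.73, -4.63, -4.86 and 1.15 in month 1 samples 1 to 5, at 0.68, -0.26, 0.17, -0.52 and 0.89 in month 2, and at 1.64, -1.28, -0.90 and 1.29 in month 3. Sfrp5 was at -5.64, -1.97, -2.35, -2.67 and -5.83 in month 1, at -6.07 to -5.66 in month 2 and at -7.84 to -5.99 in month 3. Month 1 samples 1 and 5, which nearly coincided and were averaged, lay with months 2 and 3 for both genes, and samples 2, 3 and 4 lay near the levels of the low-Myh7 shams.

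Of 21 immediate early genes tested in PSPI, 1 was called higher, Maff, and 0 lower (against 1.57% and 1.44% of all genes). Their median difference was 0.27. Egr2 had a difference of 1.29 ± 0.70 (limma, adjusted p = 0.292). Egr1 was at -0.20, -2.52, -0.13, -1.28 and -0.08 in month 1 samples 1 to 5, at -0.35, -0.80, 0.79, -1.01 and -0.25 in month 2, and at -2.19, -3.37, -2.57 and 1.14 in month 3, a difference of 0.18 ± 0.77 (limma, adjusted p = 0.905). All high-Myh7 shams were above every PSPI array for Egr1. Fos differed by 0.11 ± 0.85 (limma, adjusted p = 0.948) and Nr4a1 by 1.17 ± 0.63 (limma, adjusted p = 0.286). Fatty acid genes had 7 of 41 called lower and 0 higher (against 1.44% and 1.57% of all genes), with a median of -0.56.

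**Figure D5:**
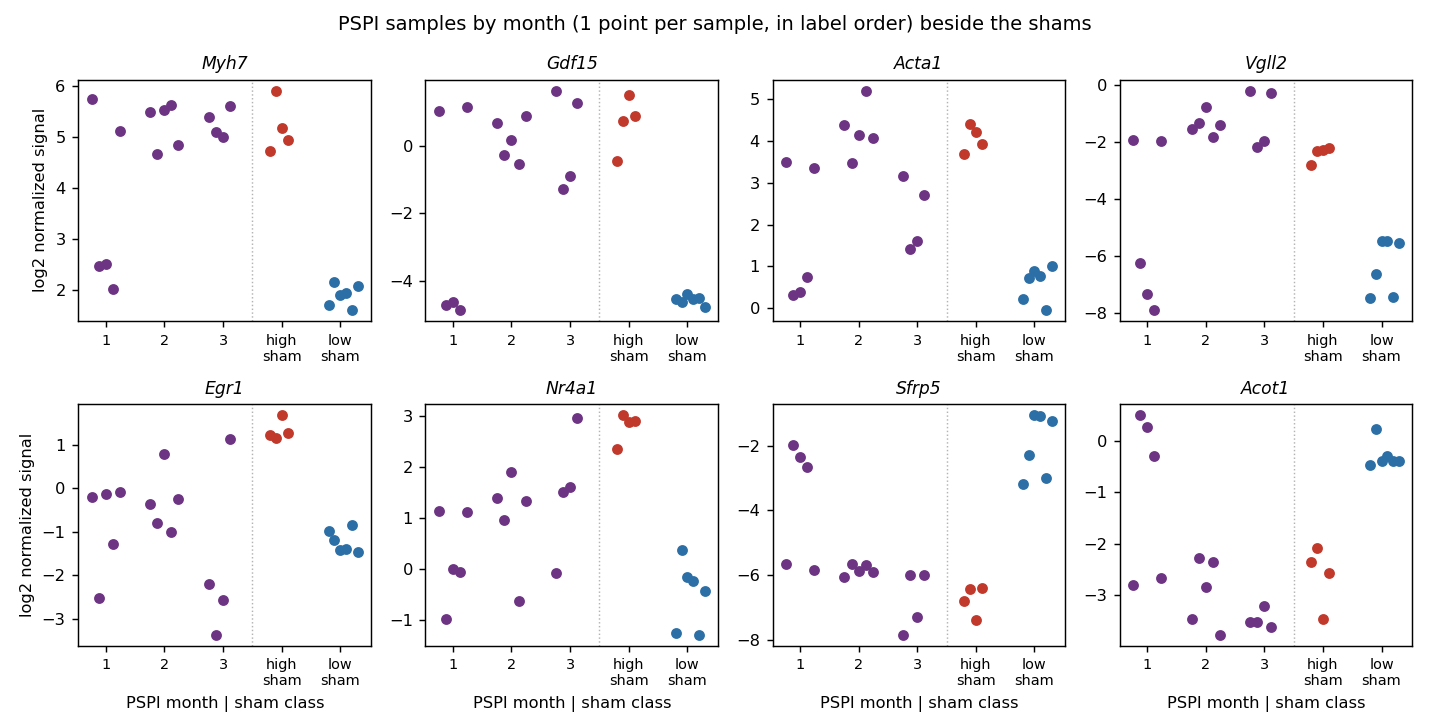
Level of 8 genes in log2 normalized signal (y axis) in PSPI samples of months 1, 2 and 3 (purple, 1 point per sample) and in high-Myh7 (red) and low-Myh7 shams (blue). Gdf15, Acta1, Vgll2, Sfrp5 and Acot1 split month 1 into samples 1 and 5 and samples 2, 3 and 4, and Egr1 reaches 1.14 at most in PSPI, against 1.17 or more in high-Myh7 shams.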

How the data were processed

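Per the file headers, the arrays were of 1 Agilent design with mm9 coordinates. The submitters' processing notes name Agilent Feature Extraction 10.7.3.1. The deposited intensity values per spot had the background subtracted by that program and no scaling across arrays. A deposited series table holds further intensity values, equal to the scanner's net signal within a relative tolerance of 0.001 for all 62976 spots per array.

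Control and outlier spots were left out and spots of 1 probe averaged. Levels are log2 processed signal minus the array's 75th percentile over 16956 probes well above background on all 24 arrays. A gene was represented by its brightest probe, well above background on at least 4 of the 10 shams, or 4 of the 14 PSPI arrays for the month contrast. Arrays of a group with a median absolute log2 difference under 0.23 over the 300 most variable probes were averaged, and both settings were chosen after seeing the data. A fold given as "at least" sets each dim array to the lowest signal well above background found on it, or to its own signal where brighter. Months 2 and 3 were set against month 1 with limma 3.58.1 (R 4.3.3), two-sided, Benjamini-Hochberg adjusted over 14380 genes, and ± after those differences is the standard error. Whether replicates are biological or technical is unknown, and p-values reflect their spread either way.

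The members, gene lists, motifs and month contrast were chosen with earlier results of these data known. Named genes were 15 always named, the 15 counted genes of largest difference each way with a plain symbol, and up to 4 counted members per list, 89 in all. The values of some of these genes are not reported here, although they stay in the counts. Other members were named with their values, and Mhrt, H19, Plagl1 and Mest were chosen after their values were seen. Symbols came from the files' accessions through a RefSeq gene table. The number of arrays limits the precision. The calculations were tested on simulated data.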

Additional observations from a re-analysis of the deposited data

Results flagged for a closer look

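In 82 combinations of 41 named genes and a sham class, 2 had a sample far from the others. The limit used gives about 1 in 20 by chance for independent arrays. Several arrays here nearly coincided, so that rate does not hold for them, and Sham 2 nearly coincided with no other sham. Acot1 in low-Myh7 shams had Sham 2 above the rest, at 0.23 against -0.47 to -0.30 on the other 5 arrays. Ccl11 in low-Myh7 shams had Sham 2 below the rest, at -3.78 against -3.22 to -2.91. Both genes were counted lower in high-Myh7 shams, whose arrays lay at -2.08 or below for Acot1 and at -4.98 or below for Ccl11.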

How the results depend on the processing

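The sham classes hold few samples, some of which nearly coincide, and rest on 1 Myh7 probe, so their differences carry no test. Genes at least 2-fold higher and lower in high-Myh7 shams numbered 208 and 202. They numbered 99 and 72 with normexp correction, 95 and 82 in the deposited table, which keeps the background, and 496 and 528 at 1.5-fold. Only probes well above background on all 10 shams gave 125 lower genes (141 higher), slide 3 alone gave 417 lower, and leaving out Sham 3, 4 and 10, an alternative added after seeing the data, gave 342 higher (218 lower). Leaving out 1 sham at a time gave 200 to 264 higher and 187 to 261 lower. With the percentile over all probes, quantile normalization, equal weights, slide as a block, slide 1 alone, no filter or the median probe, the counts stayed within 1.5 times of the main ones. Over 89 named genes and 19 alternatives, 1605 differences moved by less than 1 SD and 86 moved further, mostly with normexp (36) and the deposited table (34). Of the counted genes 0 turned sign. Only another scaling or background correction could turn the sign of a counted gene, since otherwise the arrays of counted genes did not overlap. The SD was the larger of the class SDs, which was wide for atrial genes. Without Sham 3, 4 and 10, Myl7 went from -2.66 to 0.61, Myl4 from -1.89 to 0.50 and Sln from -1.81 to 1.38. These uncounted genes turned sign and still moved by less than 1 SD.

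In PSPI, 433 genes were called, with 36 and 28 among the sham genes. There were 766 with normexp, 991 with 14 separate arrays, 947 with slide as a block (60 and 56) and 1273 with the replicate block on 14 separate arrays (73 and 79). Deviations of same-numbered arrays correlated at 0.13 to 0.49 between months 1 and 2, over 0.1 in all 5 pairs, but at -0.31 to 0.30 between months 1 and 3 and -0.25 to 0.21 between months 2 and 3, over 0.1 in 1 of 4 pairs each, so the numbers were not taken to pair the samples over this contrast. With month 1 samples 3 and 4 averaged, chosen after seeing the data, limma called 1 (0 and 0 among the sham genes). At an unadjusted p under 0.05 there were 110 and 101 sham genes in limma, with no count over all genes. Leaving out 1 array at a time gave 1 to 1083 calls, with 0 to 41 and 0 to 35 among the sham genes. The causes of these shifts were not tested.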

Other observations

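Genes outside the comparisons above, chosen after their values were seen, included imprinted genes that went both ways between the shams. H19, a maternally expressed noncoding RNA, was at -1.17 to -0.64 in high-Myh7 shams and -0.15 to 1.56 in low-Myh7 shams, a difference of -1.39 that was -0.86 without Sham 3, 4 and 10, the arrays with strong atrial genes. Plagl1, a paternally expressed zinc finger factor, was at -2.15 to -1.82 in high-Myh7 shams and -1.76 to 0.47 in low-Myh7 shams, a difference of -1.22 that was -0.64 without these 3 arrays. Mest, a paternally expressed hydrolase, was at -2.61 to -1.98 in high-Myh7 shams and -3.65 to -2.92 in low-Myh7 shams, a difference of 1.12 that was 0.97 without them. The part of atrial tissue in these values was not tested.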
